A study of Triticum aestivum with 72 samples.

Results

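The 18 arrays with the most and the 18 arrays with the least transcript of PsbP were compared among 72 arrays of developing wheat seed. PsbP (LOC543290) is a nuclear-encoded subunit of the oxygen-evolving complex, and the arrays were chosen by the mean log2 intensity of its 2 probe sets. The 36 arrays between the groups were kept aside. The samples were whole developing seeds of bread wheat, taken 5 days after anthesis from field-grown plants at Winnipeg. All 36 lines came from the mapping population RL4452 x AC Domain, and each line had 2 arrays from separate biological replicates. No treatment separated the arrays, so "high" and "low" name the PsbP score alone. Polyadenylated RNA was labelled with biotin and hybridised to the 1-colour Affymetrix wheat array.

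The outer layers of a young cereal grain hold a green pericarp tissue whose chloroplasts fix carbon in the light. Photosystem II splits water there, and the PsbO and PsbP proteins sit on the lumen side of the complex and stabilise the cluster that releases oxygen. PsbO, PsbP and the Rieske iron-sulfur protein petC are made from nuclear genes and imported into the chloroplast, whereas the large subunit of Rubisco (rbcL) is encoded in the chloroplast genome. The endosperm at this age begins to form cells and then fills with starch and storage proteins. Because seeds were ground whole, fewer green cells and less transcript per green cell cannot be told apart in any value below.

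The high group held 14 lines and the low group 15. Both arrays of lines G13, F29, D15 and B68 were high, and both arrays of B33, A35 and F44 were low. Lines F36 and H9 had 1 array in each group. The groups were not balanced over replicate numbers: the high group held 12 arrays numbered replicate 1, 1 numbered replicate 2 and 5 numbered replicate 3, and the low group 8 numbered replicate 1 and 10 numbered replicate 3. The arrays were hybridised on 12 days, of which 7 held arrays of both groups. In 12 lines the 2 arrays disagreed in over 30% of 67 probe sets with 2 separate levels, so these arrays may not be of one line. Of the arrays of those lines, 7 were high and 4 were low. The median log2 intensity per array lay between 5.31 and 5.44 over the 72 arrays.

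The PsbP score showed no gap at the limit of either group, and its steps were wider at both ends. In the high group it ranged from 11.04 to 11.70, with a median of 11.25 and a mean of 11.27 ± 0.18 log2 units (SD, n = 18). In the low group it ranged from 9.60 to 10.51, with a median of 10.32 and a mean of 10.24 ± 0.26 (SD, n = 18). These values chose the groups and carry no test. The limits fell between neighbours that hardly differed: at the lower limit DH95 replicate 1 stood at 10.5102 inside and C31 replicate 1 at 10.5106 outside, and at the upper limit F29 replicate 3 stood at 11.0423 inside and H10 replicate 3 at 11.0367 outside. The highest array was G13 replicate 3 and the lowest C31 replicate 3.

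**Figure D1:**
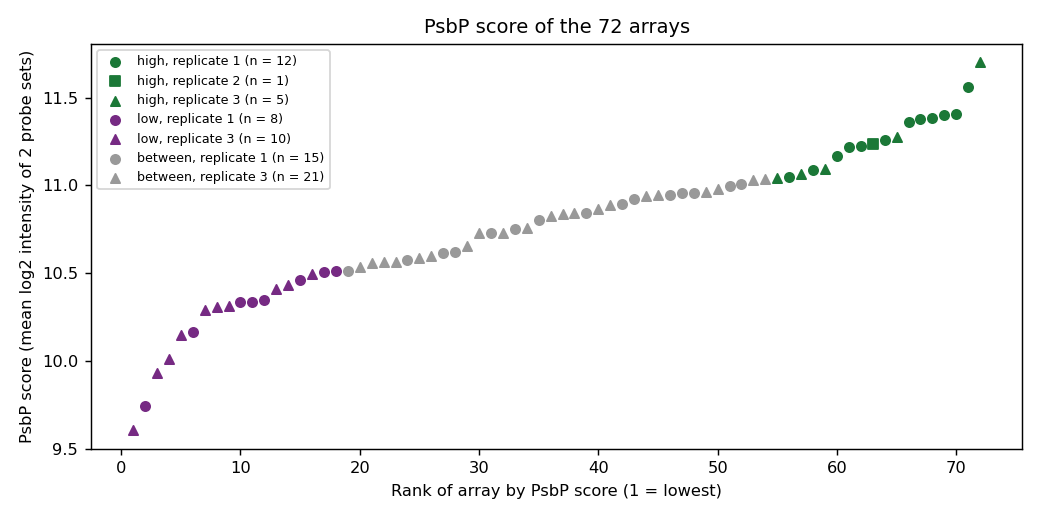
The PsbP score of each of the 72 arrays (vertical axis, mean log2 intensity of 2 probe sets) is plotted against its rank. Colour gives the group and marker shape the replicate number as labelled. The score rises steadily through the middle and falls away at the low end, down to 9.60.

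The 2 PsbP probe sets did not differ between the groups by the same amount. The brighter probe set (Ta.85.1.S1_at) had a mean of 12.58 ± 0.15 in the high group and 11.91 ± 0.29 in the low group. The dimmer (TaAffx.120874.1.S1_x_at) had means of 9.97 ± 0.26 and 8.58 ± 0.29 (SD, n = 18 each). The difference in the score groups was 0.67 log2 units for the first and 1.39 for the second, so the dimmer probe set weighed more in the choice of arrays. The 18 highest arrays by each probe set alone shared 12 arrays, and the 18 lowest shared 11.

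Most probe sets annotated to nuclear photosynthesis genes were higher in the high PsbP arrays. Of 61290 probe sets, 60017 have no symbol, so unlabelled probe sets of such genes are not counted here. Besides PsbP, the supplied annotation gives 7 probe sets to PsbO, petC, fructose-1,6-bisphosphatase (FBP), phosphoribulokinase (PRK) and thioredoxin m (Trx-M). Of these 7, 5 rose, 1 fell and 1 was not called by limma at an adjusted p under 0.05. Over all 61177 probe sets tested, 14.5% were called higher and 13.4% lower, 27.9% in all. In the highest of 4 equal bins by mean level, 3992 of 15294 were higher. That bin held all of the 7 but the dimmer petC probe set. The median difference of the 7 was 0.34 log2 units, against -0.02 over all probe sets. The lists were drawn up with earlier results of these data known, and PsbO was named with the rule, so these counts are a description.

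PsbO (LOC543291), the partner of PsbP on photosystem II, ranged from 12.49 to 13.10 in the high group with a median of 12.82. In the low group it ranged from 11.67 to 12.64 with a median of 12.20. The groups overlapped little, with 14 high arrays above every low array and 13 low arrays below every high array. The difference was 0.56 ± 0.08 log2 units (SE), a 1.48-fold higher level (limma adjusted p = 2.08e-06). PsbO was higher in the high group on all 7 days that held both groups, by 0.16 to 0.67 log2 units.

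Trx-M (LOC542973), a plastid thioredoxin of the kind that passes electrons from ferredoxin to target enzymes, ranged from 10.53 to 11.18 in the high group (median 10.96) and from 9.47 to 10.71 in the low group (median 10.40). It differed by 0.60 ± 0.10 log2 units (SE, limma adjusted p = 1.92e-05), and 16 high arrays stood above every low array. The brighter FBP probe set, Ta.439.1.S1_at, ranged from 9.08 to 9.93 (median 9.68) in the high group and from 8.44 to 9.71 (median 9.19) in the low group. FBP removes a phosphate in the Calvin cycle and in sucrose synthesis, depending on its isoform, and this probe set rose by 0.52 ± 0.09 (SE, limma adjusted p = 5.64e-05). The brighter petC probe set, Ta.861.1.S1_at, which reads the Rieske protein of the cytochrome b6f complex, had medians of 12.56 and 12.23 with widely overlapping groups. Its difference was 0.34 ± 0.07 (SE, limma adjusted p = 6.63e-04). PRK (LOC543283), which forms the acceptor of carbon dioxide in the Calvin cycle, had medians of 11.35 and 10.96 and differed by 0.30 ± 0.07 (SE, limma adjusted p = 0.00156).

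The other probe sets of FBP and petC did not follow. The dimmer FBP probe set, TaAffx.106041.1.S1_at, ranged from 6.84 to 8.18 in the high group and from 7.22 to 9.56 in the low group, and fell by 0.63 log2 units (SE 0.19, limma adjusted p = 0.0107). Of the 297 genes with several probe sets, 19 were called in opposite directions, FBP among them. The dim petC probe set had a mean of 3.65 in the high and 3.67 in the low group and was not called (limma adjusted p = 0.637). Which wheat gene copies each of these probe sets reads was not analysed here.

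The Rubisco large subunit (rbcl, LOC100049018) has 28 probe sets under its symbol and did not rise with the nuclear genes. None was called higher and 9 of 28 (32.1%) were called lower. Over all probe sets, 14.5% were called higher and 13.4% lower, 27.9% in either direction. The median difference of the 28 was -0.06 log2 units. With the day as a block 5 were called lower, where 4.9% of all probe sets were lower. Without the 12 lines whose arrays disagreed 3 were lower, where 5315 of all 61177 probe sets were lower. With the brighter PsbP probe set alone as the score none was called lower, where 3141 of all 61177 were. The 9 falls lay between -0.15 and -0.42. Of these 9 probe sets, 8 had a mean level of 5.18 or less and the other of 8.39. The brightest, Ta.24976.1.S1_x_at, stood at 14.68 in the high and 14.61 in the low group and was not called (limma adjusted p = 0.435). The RNA had been enriched by its poly(A) tail before labelling.

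The groups also differed in control probe sets that lie at different positions along 1 transcript. For 7 wheat control genes the array carries probe sets at the 3′ and 5′ ends, a common check of RNA and labelling quality, and the mean log2 ratio of the 3′ over the 5′ probe set was taken per array. This ratio was 0.763 ± 0.201 in the high group (lowest 0.509, highest 1.12) and 1.28 ± 0.27 in the low group (lowest 0.825, highest 1.79; SD, n = 18 each). The difference was -0.519 log2 units (two-sided permutation test over arrays, p = 2e-05, the smallest that 100000 permutations can give). This permutation took arrays as independent, although 4 high and 3 low lines gave both arrays and 2 lines had an array in each group. It also ignored day and replicate number. The ratio was lower in the high group on 6 of the 7 shared days, by 0.0692 to 0.895, and on the remaining day the groups differed by 0.00179. Over the means of the 36 lines, the one such relation computed, Pearson's r between PsbP score and ratio was -0.658 (permutation p = 1e-05) and Spearman's rho -0.658 (permutation p = 1e-05), the smallest that 100000 permutations can give. Without B33 and G13, the lines farthest from the median in PsbP, r was -0.615 (permutation p = 1e-04) and rho -0.603 (permutation p = 2.5e-04).

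**Figure D2:**
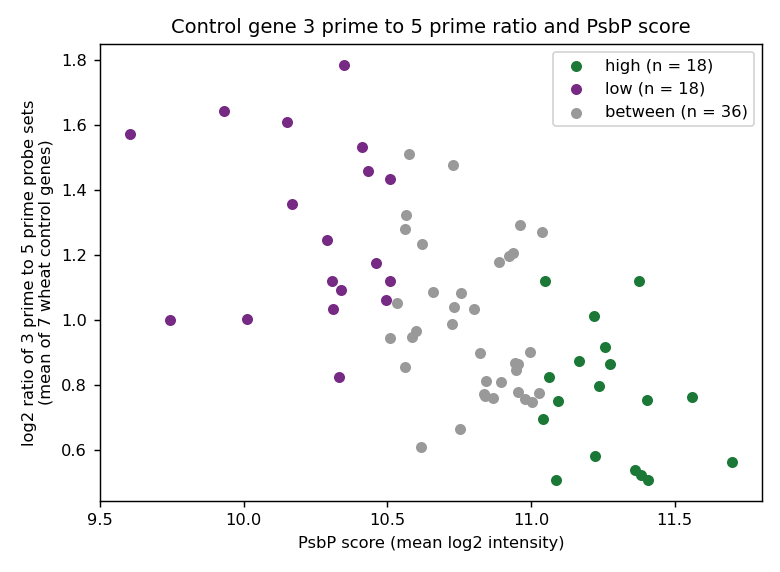
The mean log2 ratio of 3′ over 5′ probe sets of 7 wheat control genes (vertical axis) is plotted against the PsbP score (horizontal axis, mean log2 intensity) for each of the 72 arrays. High arrays lie between 0.509 and 1.12 and low arrays between 0.825 and 1.79, with the arrays between the groups spanning 0.61 to 1.51.

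The difference lay mostly in the 5′ and middle control probe sets. For sucrose synthase, a transcript abundant in filling grain, the 5′ probe set had a mean of 6.74 ± 0.62 in the high group and 5.33 ± 0.67 in the low group (SD, n = 18 each). The difference was 1.42 log2 units at the 5′ end, 1.31 in the middle and 0.26 at the 3′ end. For glucose-6-phosphate dehydrogenase it was 1.08, 0.72 and 0.16, and for ubiquitin 0.54, 0.15 and 0.06. The 3′ probe sets of actin and gapdh differed by 0.00 and -0.03, and their 5′ probe sets by 0.27 and 0.38. The 5′ and 3′ probe sets of ef1a both differed by under 0.01.

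**Figure D3:**
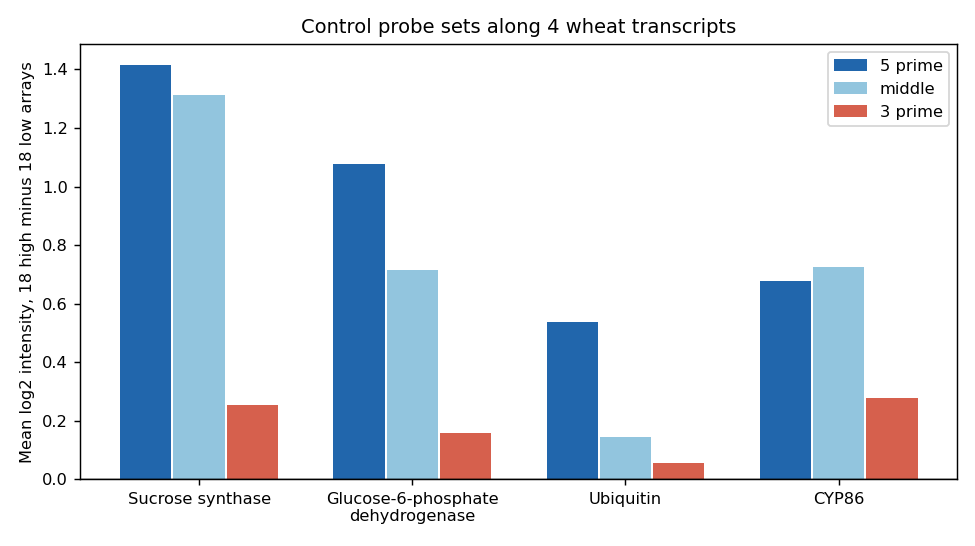
Bars give the difference in mean log2 intensity between the 18 high and 18 low arrays for the 5′, middle and 3′ control probe sets of 4 wheat genes. For each gene the 3′ bar is the shortest, from 0.06 for ubiquitin to 0.28 for CYP86, and the tallest bar is 1.42 for the 5′ probe set of sucrose synthase.

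With this ratio as a covariate, 2243 of the 61177 probe sets were called, 3.67% in all, with 1600 higher and 643 lower. Without it, 17075 were called, 8863 higher and 8212 lower, and 1881 were called in the same direction in both fits. The nuclear photosynthesis genes were still called: 5 of the 7 probe sets were higher and 0 lower, with a background of 2.62% called higher. Their median difference was 0.48 log2 units, against 0.34 without the covariate. PsbO differed by 0.64 (limma adjusted p = 0.00122), the brighter FBP probe set by 0.74 (limma adjusted p = 8.04e-04) and the brighter petC probe set by 0.53 (limma adjusted p = 0.00168). PRK differed by 0.42 (limma adjusted p = 0.0162) and Trx-M by 0.48 (limma adjusted p = 0.0471). No rbcl probe set was called in that fit. The part of the ratio in the other differences was not tested beyond this covariate.

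With the hybridisation day as a block, 7945 probe sets were called (13% of those tested, 8.09% higher and 4.9% lower). Of the 7 nuclear photosynthesis probe sets, 4 were higher and 1 lower. PsbO then differed by 0.33 log2 units (limma adjusted p = 0.0216), and petC by 0.27 (limma adjusted p = 0.0661). Without the 12 lines whose arrays disagreed, 5 of the 7 were higher and 0 lower, where 18.9% of all probe sets were called.

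**Figure D4:**
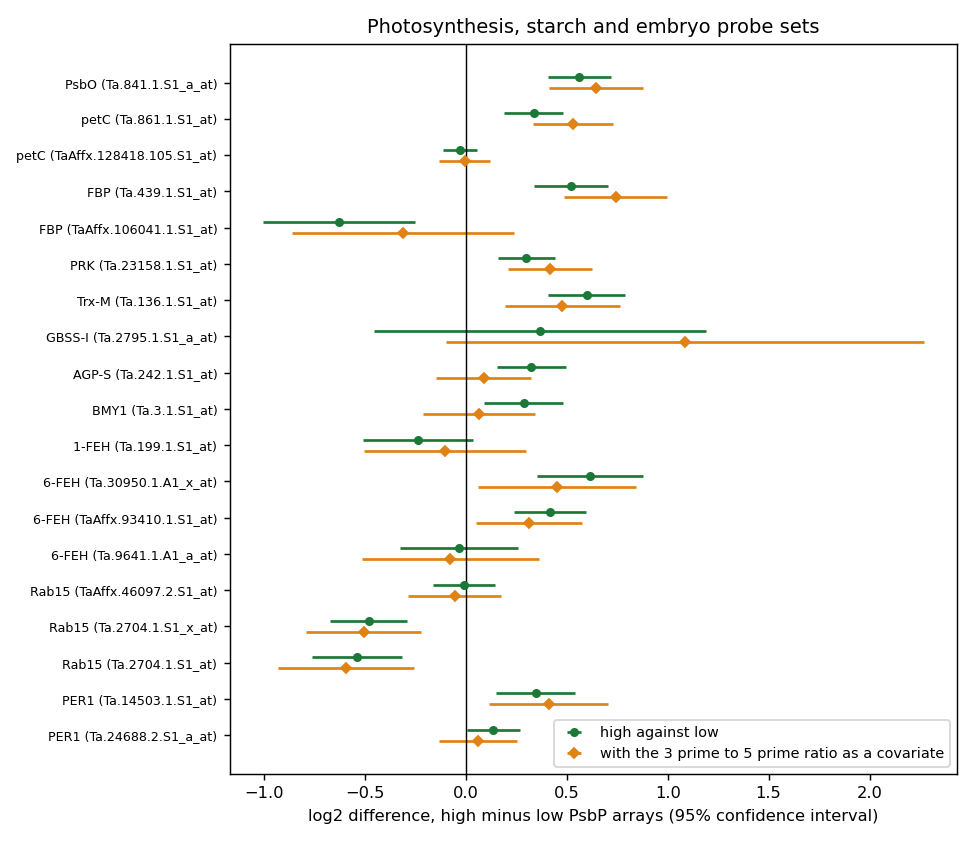
Points give the log2 difference of the high minus the low arrays for probe sets of photosynthesis, starch, sugar, dehydrin and peroxiredoxin genes, with bars for 95% confidence intervals. Green circles are the plain comparison and orange diamonds the fit with the 3′ to 5′ ratio as a covariate. PsbO lies at 0.56 and 0.64, whereas AGP-S moves from 0.32 to 0.09.

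Several starch and sugar genes were also higher in the high arrays. Of 7 probe sets, 4 rose and none fell (14.5% of all tested rose and 27.9% were called), with a median difference of 0.32 log2 units. The 7 had mean levels of 7.43 to 12.70. In the highest of 4 equal bins by mean level, from 7.45 up, 3992 of 15294 probe sets were higher. The small subunit of ADP-glucose pyrophosphorylase (AGP-S, LOC543299), which makes the sugar donor for starch, ranged from 11.09 to 11.63 in the high group (median 11.34) and from 10.25 to 11.47 in the low group (median 11.07). It differed by 0.32 ± 0.08 (SE, limma adjusted p = 0.0041). A fructan exohydrolase (6-FEH, LOC780575), which releases fructose from fructan, rose by 0.62 ± 0.13 (SE, limma adjusted p = 6.4e-04) in probe set Ta.30950.1.A1_x_at and by 0.42 ± 0.09 (SE, limma adjusted p = 5.77e-04) in probe set TaAffx.93410.1.S1_at. The remaining 6-FEH probe set, Ta.9641.1.A1_a_at, stood at 9.83 in the high and 9.87 in the low group and was not called (limma adjusted p = 0.886). A beta-amylase gene (BMY1, LOC543318) differed by 0.29 ± 0.10 (SE, limma adjusted p = 0.0241). With the ratio as a covariate, none of the 7 was called, where 3.67% of all probe sets were. With the day as a block 3 were called higher, where 8.09% of all probe sets were higher. Without the 12 lines whose arrays disagreed 2 were called higher, where 6262 of all 61177 probe sets were higher. With the ratio, the 2 called 6-FEH probe sets differed by 0.45 and 0.31 (limma adjusted p = 0.19 and 0.178), and AGP-S differed by 0.09 (limma adjusted p = 0.737). The granule-bound starch synthase GBSS-I (LOC543395) ranged from 7.71 to 11.19 in the high and from 6.98 to 11.09 in the low group, and its medians were 9.01 in both (limma adjusted p = 0.528).

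In the storage protein list, of 17 probe sets of gliadins, a glutenin and avenin-like proteins, 2 rose and 1 fell, which is 17.6% called against 27.9% over all probe sets. None was called with the ratio as a covariate, where 3.67% of all probe sets were called. With the day as a block none was called, where 13% of all probe sets were. The largest difference was a fall of a gliadin probe set, Ta.24114.1.S1_x_at (LOC543210), from 5.32 ± 0.57 to 4.88 ± 0.25 (SD, n = 18 each; limma adjusted p = 0.0183). The bright avenin-like probe set Ta.27777.1.S1_at stood at 10.44 in the high and 10.36 in the low group and was not called.

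Several dehydrin and late embryogenesis genes of low level were lower. Of 12 probe sets, 1 rose and 6 fell (27.9% of all tested were called, 13.4% lower), with a median difference of -0.14 log2 units. With the ratio as a covariate 3 were called lower and none higher, where 1.05% of all probe sets were lower. With the day as a block 1 was lower and none higher, where 4.9% of all probe sets were lower. Rab15 (LOC543293), a dehydrin of the kind made under water loss, ranged from 4.87 to 6.12 in the high group (median 5.76) and from 5.70 to 6.78 in the low group (median 6.31) in probe set Ta.2704.1.S1_at. It fell by 0.54 log2 units (SE 0.11, limma adjusted p = 4.4e-04) and by 0.60 with the ratio as a covariate (limma adjusted p = 0.0359), but by 0.25 with the day as a block (limma adjusted p = 0.149). Rab15 probe set Ta.2704.1.S1_x_at differed by -0.48 (limma adjusted p = 2.77e-04). The dim TaAffx.46097.2.S1_at differed by -0.01 and was not called (limma adjusted p = 0.934). The 3 probe sets of Em (LOC543480), a protein of late seed maturation, fell by 0.19 to 0.21 from mean levels of 4.17 to 5.17 in the low group. The rise was in PER1 (LOC543108), a peroxiredoxin found in embryo and aleurone, by 0.35 ± 0.10 (SE, limma adjusted p = 0.00733). It was not called with the ratio as a covariate, where it differed by 0.41 (limma adjusted p = 0.103), or with the day as a block, where it differed by 0.07 (limma adjusted p = 0.722). These values are of probe set Ta.14503.1.S1_at. The brighter PER1 probe set, Ta.24688.2.S1_a_at, differed by 0.13 and was not called in the plain comparison (limma adjusted p = 0.115). The small heat shock gene hsp16.9A (LOC543277) ranged from 3.96 to 13.57 in the high group and from 3.78 to 11.87 in the low group. Its medians were 5.52 and 4.99 and it was not called (limma adjusted p = 0.62).

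Genes of cell growth showed no common direction. Of 29 probe sets of tubulins, histones and XTH, 3 rose and 2 fell, which is 17.2% called against 27.9% over all probe sets. Their median difference was -0.04 log2 units. None was called with the ratio as a covariate, where 3.67% of all probe sets were. XTH, an enzyme that cuts and rejoins xyloglucan in the cell wall, differed by 0.47 ± 0.15 (SE, limma adjusted p = 0.0205). An alpha-tubulin probe set, Ta.812.1.S1_x_at, stood at 13.81 in the high and 13.60 in the low group (limma adjusted p = 0.00949). The largest fall was in a histone H2A probe set, wcH2A-2 (LOC732712), by 0.59 log2 units (SE 0.18, limma adjusted p = 0.014).

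**Figure D5:**
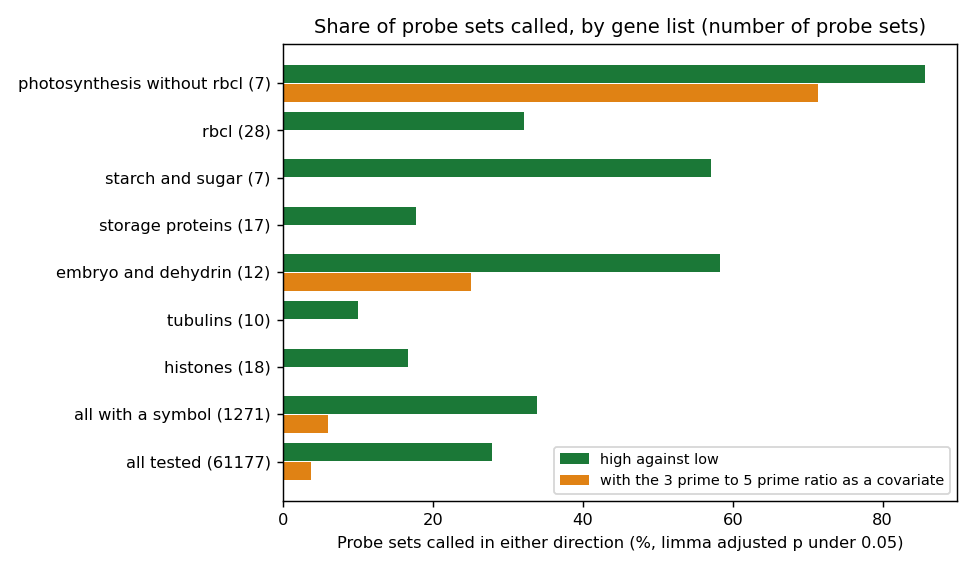
Bars give the percent of probe sets called in either direction by limma at an adjusted p under 0.05 for each gene list, with the number of probe sets in brackets. Green bars are the plain comparison, where 27.9% of all tested were called, and orange bars the fit with the 3′ to 5′ ratio as a covariate, where 3.67% were.

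The label of the contrast, green outer layer activity, was checked against markers of the seed's other parts. PsbO, the other green marker, rose. Of 11 endosperm marker probe sets, 1 rose (AGP-S) and none fell, against 14.5% higher and 13.4% lower over all probe sets. The gliadin and glutenin probe sets among them had mean levels of 3.17 to 4.51, save Ta.160.2.S1_x_at at 6.67. In the lowest of 4 equal bins by level (up to 4.14), 15.4% of probe sets were called, so their lack of calls says little about endosperm. The summed level of the 11 was mostly that of AGP-S (mean 11.19) and GBSS-I (9.03). It ranged from 11.45 to 12.43 (log2) in the high group and from 10.89 to 12.12 in the low group. Gliadins of the storage protein list outside these markers were called both ways. Ta.24114.1.S1_x_at differed by -0.44 (limma adjusted p = 0.0183) and Ta.15268.1.S1_x_at by 0.19 (limma adjusted p = 0.0161). Of 4 embryo and aleurone marker probe sets, 1 rose, with summed levels of 7.18 to 7.50 in the high and 7.01 to 7.54 in the low group. These 4 are part of the dehydrin and late embryogenesis list, where 1 of 12 probe sets rose and 6 fell. Of 4 raftin probe sets, markers of anther remains, 1 rose, with summed levels of 6.53 to 6.86 and 6.40 to 6.77. The part of other tissues in the differences was not tested, and the groups are therefore named by their PsbP score and not by a tissue.

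The change was spread over the array and depended on the level of the probe set. Probe sets were divided into 4 equal bins by mean level. In the lowest bin, 15.4% of probe sets were called and 15.2% of these calls were higher. In the highest bin, 34.2% were called and 76.2% of these calls were higher. Calls of at least 1 log2 unit numbered 456, of which 441 were rises and 15 falls. Among the 1271 probe sets with a gene symbol, 320 rose and 111 fell, which is 33.9% called.

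The largest rises with a gene symbol came in genes for which the supplied tables give no function. LOC542817 ranged from 6.39 to 8.81 in the high group (median 8.08) and from 3.76 to 7.77 in the low group (median 6.41), and rose by 2.09 ± 0.36 log2 units (SE, limma adjusted p = 6.3e-05). With the ratio as a covariate its difference was -0.12 (limma adjusted p = 0.83). LOC606326 and LOC780687 each rose 2.83-fold, LOC100049047 2.56-fold and 2.33-fold in 2 probe sets, LOC543063 2.40-fold and LOC100037651 2.20-fold. None of these 5 genes was called with the ratio as a covariate, where their log2 differences lay between 0.48 and 0.91. LOC780696, LOC543372 and LOC543487 rose by 1.03 to 1.04 log2 units, and with the covariate their differences were -0.05, -0.20 and -0.12.

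LOC100125732 and LOC100125730 stood apart from the other large rises. LOC100125732 ranged from 8.08 to 9.26 in the high group (median 8.52) and from 6.35 to 7.91 in the low group (median 7.36), so the groups did not overlap. It rose by 1.33 ± 0.13 log2 units (SE, limma adjusted p = 2.19e-08), and by 0.78 with the ratio as a covariate (limma adjusted p = 0.00379). LOC100125730 ranged from 8.64 to 9.78 (median 9.12) and from 7.56 to 8.62 (median 8.12), again with no overlap. It rose by 1.03 ± 0.09 (SE, limma adjusted p = 4.57e-09), and by 0.88 with the covariate (limma adjusted p = 2.86e-04). Both were higher in the high group on all 7 shared days. In all, 29 probe sets were higher without overlap (0.0474% of those tested) and 1 was lower (0.00163%). The other gene with a symbol among the 29, named here after its values were seen, was LOC543332, which rose by 0.48 log2 units. The 1 lower without overlap, TaAffx.54294.1.S1_at, has no symbol and fell by 0.43.

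The largest falls with a symbol were smaller than the largest rises. LOC606323 ranged from 6.43 to 8.60 in the high group (median 7.06) and from 6.89 to 11.46 in the low group (median 8.39). It fell by 1.36 log2 units (SE 0.29, limma adjusted p = 7.33e-04), fell by 1.87 with the ratio as a covariate (limma adjusted p = 0.0101), and was lower in the high group on all 7 shared days. LOC100125710 had medians of 7.39 and 7.88 and fell by 0.50 (SE 0.07, limma adjusted p = 1.84e-06), and by 0.45 with the covariate (limma adjusted p = 0.00966). Falls of 0.52 to 0.67 were found in 1 probe set each of LOC542771, LOC543150, LOC780601, LOC606320, LOC542880 and LOC543494. Other probe sets of LOC542771 and LOC542880 were called higher, by up to 0.40 and 0.48. None of the 6 falls was called with the covariate, where LOC542771 and LOC543150 differed by -0.77 and -0.96, larger than without it, and the others by -0.17 to -0.32. With the day as a block LOC542771 differed by -0.21 (limma adjusted p = 0.493).

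Of the probe sets with no symbol, the largest rise and the largest fall came from probe sets whose arrays lay far apart within each group. Ta.7259.1.S1_a_at ranged from 3.79 to 10.42 in the high group (median 9.87) and from 3.26 to 10.05 in the low group (median 4.24), a rise of 2.50 log2 units (SE 0.84, limma adjusted p = 0.0239). TaAffx.105083.1.S1_at ranged from 4.19 to 11.07 (median 4.54) and from 4.29 to 11.54 (median 10.97), a fall of 2.70 log2 units (SE 0.90, limma adjusted p = 0.0231). In both, arrays of each group lay near both ends. Neither was called with the ratio as a covariate, where the differences were larger, at 2.72 (SE 1.26, limma adjusted p = 0.232) and -4.05 (SE 1.31, limma adjusted p = 0.075). TaAffx.78956.1.S1_at differed in another way, from 6.93 to 9.62 (median 7.63) against 4.50 to 6.97 (median 5.26), with 17 of 18 high arrays above every low array. It rose by 2.36 ± 0.27 (SE, limma adjusted p = 1.64e-07) and by 1.22 with the covariate (limma adjusted p = 0.0224). Ta.14426.1.S1_x_at fell by 1.40 (SE 0.52, limma adjusted p = 0.0406) and was called in 19 of 36 fits that each left out 1 array.

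Whether PsbP belongs to the line or to the single array was asked by scoring lines on one replicate and reading the other. The 9 lines highest in replicate 1 had a PsbP score of 11.01 ± 0.31 in replicate 3 (lowest 10.56, median 11.03, highest 11.70), and the 9 lowest lines had 10.45 ± 0.45 (lowest 9.60, median 10.53, highest 10.98; SD, n = 9 each). The groups overlapped, and the difference was 0.559 log2 units (two-sided exact permutation test, p = 0.00391), against 1.03 in the replicate used for scoring. With 12 lines a side it was 0.346 (two-sided permutation test, p = 0.0519). In the opposite direction, scored on replicate 3 and read in replicate 1, the means were 11.08 ± 0.44 and 10.57 ± 0.39 and the difference 0.505 (two-sided exact permutation test, p = 0.0204). The 2 directions use the same arrays in turn and are not independent of each other.

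PsbO was also read in the other replicate. In replicate 3 it was 12.64 ± 0.24 in the lines highest by replicate 1 and 12.28 ± 0.26 in the lowest (SD, n = 9 each), a difference of 0.359 (two-sided exact permutation test, p = 0.00662). With 12 lines a side it was 0.220 (two-sided permutation test, p = 0.0677), and with quantile normalization 0.194 (two-sided exact permutation test, p = 0.0367). In replicate 1, by replicate 3, the difference was 0.326 (two-sided exact permutation test, p = 0.00506). The 3′ to 5′ ratio of the same arrays differed by -0.243 (two-sided exact permutation test, p = 0.0898) and -0.262 (p = 0.171 by the same exact test). It passed in 2 alternatives, with -0.295 in replicate 3 without the 12 lines whose arrays disagreed (exact permutation p = 0.0465) and -0.396 in replicate 1 with median centring (exact permutation p = 0.014). Over all 61177 probe sets, the replicate 3 arrays of the lines scored on replicate 1 gave 2 calls, 0.00327%, both higher. These were Ta.10621.2.S1_a_at and TaAffx.8264.1.S1_at, which have no symbol and are named because the count is small. At an unadjusted p under 0.05 there were 10132. PsbO was not among the calls (limma adjusted p = 0.222).

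Among the 36 arrays between the groups, which did not enter the comparison, the slope of each probe set on the PsbP score was fitted. Only 3 probe sets were called, 0.0049% of those tested, all with a positive slope: Ta.1139.1.S1_at at 1.05, Ta.1139.1.S1_x_at at 0.91 and Ta.25440.1.S1_a_at at 0.94 log2 units per unit of score. They have no symbol and are named because the count is small, and 3388 probe sets had an unadjusted p under 0.05. The scores of these arrays span 10.51 to 11.04, a narrower range than the groups. PsbO had a slope of 0.34 ± 0.13 (SE, limma adjusted p = 0.861) and Trx-M of 0.86 ± 0.22 (SE, limma adjusted p = 0.405). Of the 8863 probe sets higher in the high group, 7868 had a slope above 0, and of the 8212 lower, 6525 had a slope below 0. The same sign was found in 66.9% of all probe sets tested. These arrays are of the same lines in part, with 8 lines of the high group and 10 of the low group among them.

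The choice of probe set for the score changed the contrast. With the brighter probe set alone, 9430 probe sets were called (6289 higher), and the mean 3′ to 5′ ratio was 0.866 in the 18 highest and 1.08 in the 18 lowest arrays. With the dimmer probe set alone, 15880 were called (8549 higher), and the ratio was 0.748 and 1.29. Of the 7 nuclear photosynthesis probe sets, 5 were called higher and 1 lower with either score. Of the 7 starch and sugar probe sets, 2 were called higher with the first and 4 with the second.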

How the data were processed

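The authors deposited summarised intensity values, not in log units, that run from 6.02 to 29610. Per the submitters' processing notes RMA was used, and neither its version nor a joint run of the 72 arrays is stated there. Here log2 was taken with a pseudocount of 0, with no filter on low values. Of 61290 probe sets, 111 controls and the 2 PsbP probe sets were left out and 61177 tested. The supplied annotation gives 1 symbol to 1273 probe sets (771 genes, 770 of them in the RefSeq table), several to 0 and none to 60017.

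The groups were compared with limma 3.58.1 in R 4.3.3, with the line as a random block (correlation 0.0191) and Benjamini-Hochberg adjustment over all probe sets at 0.05. Permutation tests used scipy 1.17.1. Since arrays were taken from both ends of a score, a difference shows that a probe set moved with PsbP over these arrays, and no condition was applied. The labels call replicates biological without naming separate plants, so p-values measure the spread between these samples. The number of arrays limits the precision. Day came from the array run records.

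Named were the 12 largest rises and 12 largest falls with a symbol, the 3 largest differences of each list, and 2 rises and 2 falls without a symbol. Genes were named from old array annotation. Members and lists were chosen with earlier results of these data known.

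Tested on simulated data with 50 changed probe sets per size, the comparison recovered 18%, 74%, 96% and 100% of log2 differences of 0.25, 0.5, 1 and 2. For the slope among the 36 arrays between, the sizes were log2 units per unit of PsbP score, over scores of 10.51 to 11.04. That slope fit recovered 0%, 8%, 56% and 94%. The replicate 3 comparison recovered 8%, 54%, 94% and 94% of the log2 differences. In the same order, 12, 7 and 10 unchanged probe sets were also called. With no change simulated, each made 0 calls. The simulated noise was independent between probe sets and arrays, with no effect of line, day or ratio. These counts therefore cannot show how many calls in the real data are false.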

Additional observations from a re-analysis of the deposited data

Results flagged for a closer look

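In the replicate 3 arrays of the 9 lines highest by replicate 1, line G13 stood apart with a PsbP score of 11.70, by a gap to its nearest neighbour that exceeds Dixon's 95% limit for 9 values. In the replicate 1 arrays of the 9 lines lowest by replicate 3, line B33 stood apart with a PsbO level of 11.67. Chance alone sets a sample apart in this way in about 1 of 20 groups.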

How the results depend on the processing

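The count of probe sets called between the high and low arrays was 17075. It was 7945 with the hybridisation day as a block (62.3% of calls higher, against 51.9%), 2243 with the 3′ to 5′ ratio as a covariate (71.3% higher), 10693 among the 30588 probe sets above the median level, where fewer were tested, and 11153 for line means of 9 against 9 lines, where fewer samples entered. The balance of calls turned under quantile normalization, with 7704 higher and 8871 lower (46.5% higher), and without E5 replicate 1, with 8662 higher and 8980 lower. Of the alternatives chosen after seeing the data, scoring by the brighter PsbP probe set alone gave 9430, and the replicate block together with the ratio gave 1755. Without the 12 unmatched lines it was 11577, without the 3 arrays farthest from the mean array 13829, and without the 2 lines with an array in each group 15684. Leaving out 1 array at a time gave 15127 (without C31 replicate 3) to 17642 (without E5 replicate 1). The replicate block alone gave 13247. The numbers do not pair a high with a low array, and the labels do not say that a number marks a shared batch, so this fit is given for its count only.

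The count of 3 for the slope was 0 with the day as a block and with quantile normalization, and 7 with median centring. The count of 2 in replicate 3 was 0 with the day, the ratio, quantile normalization and without the unmatched lines. The PsbP difference in replicate 3 was 0.346 (permutation p = 0.0519) with 12 lines a side. With the ratio as a covariate the sign turned for LOC542817 (-0.12), LOC780696 (-0.050), LOC543372 (-0.20), LOC543487 (-0.12) and LOC543277 (-0.22), and with the replicate block added these were -0.20, -0.018, -0.32, -0.15 and -0.088. Under quantile normalization LOC543277 stood at -0.50 and the raftin LOC543009 (Ta.4091.1.S1_x_at) at -0.021, and with 12 against 12 arrays LOC543277 at -0.58. The cause was not tested. Of 37 named probe sets called, 35 were called in all 36 fits that left out 1 array; LOC543150 and Ta.14426.1.S1_x_at were not.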
